A study of Torulaspora microellipsoides with 8 samples.

Results

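The genes described here act in daughter cell separation, the last step of budding, in which enzymes secreted by the daughter cell cut the septum that holds it to the mother. Members were the transcribed regions annotated with any of 9 names, namely DSE4, DSE1, DSE2, CTS1, SCW11, EGT2, CBK1, MOB2 and AMN1. Of these names, 6 had a region, with 10 regions in all out of 4464 in the deposited table, and DSE1, DSE2 and EGT2 were not analysed here. The set was chosen by name with the opaque and white counts of these genes, and so their fold changes, already known, and fold changes of the members are therefore given as a description, without p-values.

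The measurements came from mRNA sequencing of 3 opaque and 3 white cultures of the budding yeast *T. microellipsoides*, all of a single strain. White cells are the small haploid form of this yeast, and opaque cells are the larger form of higher ploidy that arises from them as darker sectors of a colony. All cultures were grown without treatment in yeast extract glucose medium at 23 °C and collected in log phase. The labels give a volume of 25 ml, shaking at 200 r.p.m. and optical densities (OD600) of 0.05 at inoculation and 1.0 at harvest, whereas the study's methods give another volume and shaking speed. The opaque libraries thus differ from the white ones in ploidy and cell size as well as in colony type.

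In *S. cerevisiae*, from which all names are taken, the kinase Cbk1 and its partner Mob2 form the core of the RAM network, a signalling pathway needed for cell separation and polarised growth. Its activity in the daughter cell leads to the expression of genes for wall-degrading enzymes, among them the endoglucanase Dse4 (also called Eng1), the glucanase-like protein Scw11 and the chitinase Cts1. The transcripts of these genes peak as cells leave mitosis and enter G1, and cells that lack the enzymes stay attached to each other in clumps. AMN1 encodes an antagonist of the mitotic exit network, the kinase cascade that ends mitosis, and is itself expressed mainly in daughter cells.

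Library totals were 24948791 to 50126043 counts in opaque cells and 27057131 to 36957019 counts in white cells. Levels are given as CPM, counts per 1000000 counts of the library after TMM normalisation, and a log2 fold change is opaque minus white, so that a negative value is lower in opaque cells. Regions were tested with edgeR's quasi-likelihood test, and a region was called where its p, adjusted by Benjamini-Hochberg over the 4404 regions tested, was under 0.05. With this rule 74.2% of the tested regions were called, 37.6% lower and 36.6% higher in opaque cells. Over all regions the median fold change (log2) shifted by -0.12 with upper-quartile scaling and by -0.16 with total counts, relative to TMM. Shifts of this size bear on small differences, on values near a fold limit and on the number of regions called in each direction. Levels are shares of the mRNA of a whole culture, in which fewer cells of a type and less RNA per cell cannot be told apart.

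Of the 10 member regions, 7 were called lower in opaque cells, against 37.6% of all tested regions, and 6 of them were at least 4-fold lower, against 5.25% of all regions, while 0 were at least 4-fold higher, against 5.93%. The 7 were both regions of DSE4, of CTS1 and of SCW11 and the region of AMN1. A further 2 regions, of CBK1 and MOB2, were called higher, against 36.6% of all regions, and 1 region of CBK1 was not called. The median log2 fold change was -2.86 over the 10 regions and -0.02 over all tested regions. The 3 opaque libraries lay below the 3 white ones for the same 7 regions and above them for 2, and overlapped for 1. Among all tested regions the groups lay apart for 77.8%, with the opaque libraries below for 39.9%. The counts of members follow from how the set was chosen and are not a test of it.

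**Figure D1:**
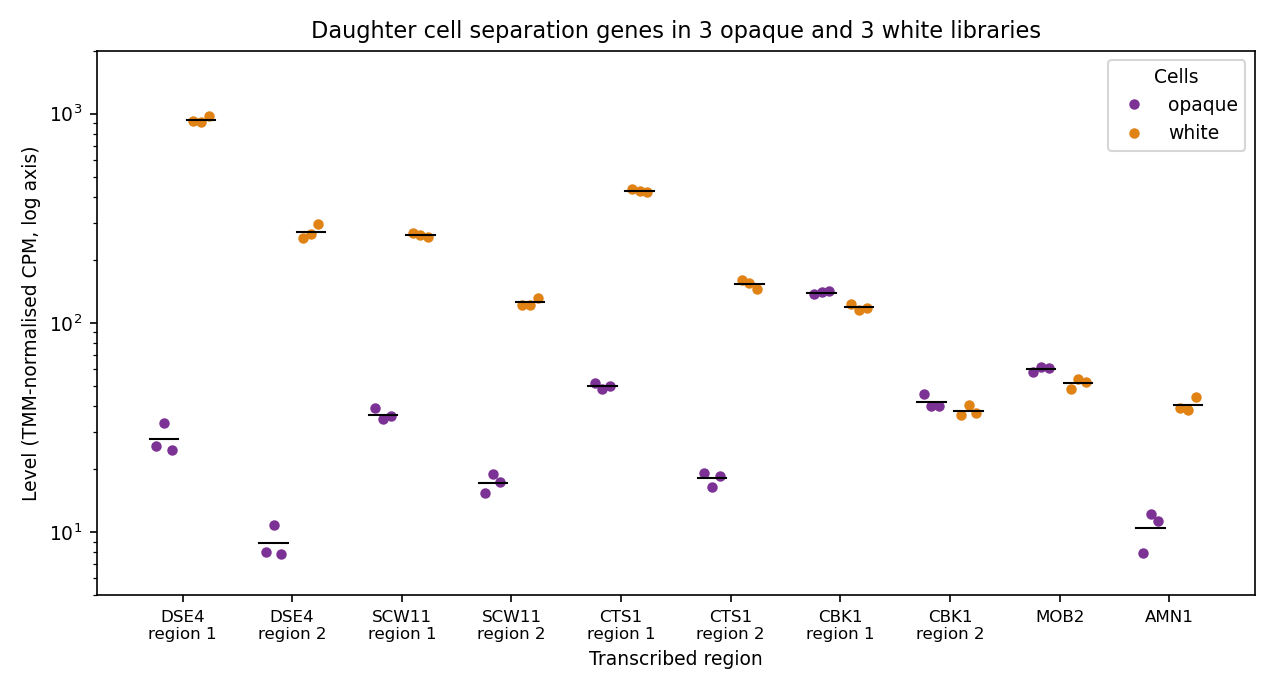
Level of each of the 10 member regions in CPM on a log axis, with 1 point for each of 3 opaque and 3 white libraries and a line at the mean of a group. The opaque libraries lie far below the white ones for DSE4, SCW11, CTS1 and AMN1, whereas the groups lie close together for CBK1 and MOB2.

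DSE4 was the separation gene that differed most. It was covered by 2 regions of a single assembled transcript on scaffold 2 of the CLIB830T genome assembly, which runs from 1494367 to 1497799. Region 1, from 1494540 to 1496660, matched the *S. cerevisiae* protein at 75.1% identity, and region 2, from 1497042 to 1497734, at 29.2%. Both matches lie on the minus strand, so region 2 is the part nearer the 5′ end, and 381 bases separate them.

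Region 1 of DSE4 was at 25.8, 33.1 and 24.6 CPM in opaque libraries 1, 2 and 3, and at 926, 908 and 970 CPM in white libraries 1, 2 and 3. Every white library was therefore far above the highest opaque one, which was opaque library 2. The mean was 27.8 ± 4.59 CPM in opaque cells and 935 ± 32.0 CPM in white cells (SD, n = 3 each), which put the log2 fold change at -5.07 (SE 0.12), or 33.6-fold higher in white cells. This put DSE4 at rank 30 of 4404 tested regions from the low end.

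Region 2 of DSE4, the diverged part of the protein, showed the same picture. It was at 8.06, 10.8 and 7.84 CPM in opaque libraries 1, 2 and 3, and at 256, 266 and 296 CPM in white libraries 1, 2 and 3. Opaque library 2 was again the highest of its group, and the groups were far apart. The log2 fold change was -4.95 (SE 0.12), and the difference between the log2 fold changes of region 2 and region 1 was 0.12.

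CTS1, the chitinase gene, differed by a smaller factor than DSE4 but was the least variable of the 3 wall enzyme genes between libraries. Its transcript on scaffold 8 runs from 507325 to 510454 and holds region 1, from 508035 to 508928 at 75.2% identity, and region 2, from 509262 to 509495 at 61.5%. Region 1 was at 51.8, 48.1 and 50.1 CPM in opaque libraries 1, 2 and 3, and at 436, 429 and 420 CPM in white libraries 1, 2 and 3. All opaque libraries were close to each other, and all white ones were far above them. The mean was 50.01 ± 1.85 CPM in opaque cells and 428 ± 7.87 CPM in white cells (SD, n = 3 each), with a log2 fold change of -3.10 (SE 0.065), or 8.56-fold higher in white cells. Region 2, at 18.0 ± 1.51 CPM in opaque cells and 154 ± 7.30 CPM in white cells, had a log2 fold change of -3.08 (SE 0.079).

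SCW11, which encodes a wall protein similar to glucanases, was close to CTS1 in its fold change. Its transcript on scaffold 4 runs from 701290 to 704465, with region 1 from 702502 to 703272 at 69.3% identity and region 2 from 701794 to 702081 at 60.4%. Region 1 was at 39.0, 34.6 and 35.7 CPM in opaque libraries 1, 2 and 3, and at 269, 264 and 256 CPM in white libraries 1, 2 and 3. No opaque library came near the lowest white one. The mean was 36.4 ± 2.27 CPM in opaque cells and 263 ± 6.26 CPM in white cells (SD, n = 3 each), which put the log2 fold change at -2.85 (SE 0.071), or 7.22-fold higher in white cells. Region 2, at 17.1 ± 1.78 CPM in opaque cells and 125 ± 5.29 CPM in white cells, had a log2 fold change of -2.88 (SE 0.084).

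The 3 wall enzyme genes made up a much smaller and differently composed pool of transcripts in opaque cells. Summed over their 6 regions, DSE4, CTS1 and SCW11 were at 159, 162 and 154 CPM in opaque libraries 1, 2 and 3, and at 2169, 2143 and 2219 CPM in white libraries 1, 2 and 3. The mean sum was 13.8-fold higher in white cells. Of the sum, DSE4 took 23.2% in opaque cells and 55.4% in white cells, CTS1 took 43.0% in opaque cells and 26.7% in white cells, and SCW11 took 33.8% in opaque cells and 17.8% in white cells. These shares are of counts and are not scaled for length, and the regions of DSE4 are longer than those of CTS1 and SCW11, so they compare a gene between cell types and do not rank the genes.

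AMN1, the antagonist of mitotic exit, was lower in opaque cells by less than the enzyme genes. Its single region on scaffold 5, from 300796 to 302145, matched at 45.8% identity. It was at 7.89, 12.1 and 11.3 CPM in opaque libraries 1, 2 and 3, and at 39.0, 38.4 and 44.0 CPM in white libraries 1, 2 and 3. The groups did not overlap, and opaque library 1 was the lowest. The mean was 10.4 ± 2.25 CPM in opaque cells and 40.5 ± 3.09 CPM in white cells (SD, n = 3 each), which put the log2 fold change at -1.98 (SE 0.15), or 3.88-fold higher in white cells. The value lay just short of the 4-fold limit, and crossed it, for instance, under upper-quartile scaling (-2.09), total counts (-2.14) or without opaque library 2 (-2.12).

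CBK1 and MOB2, the kinase and its activator, were present at similar levels in both cell types. CBK1 lay on a transcript of scaffold 5 from 796289 to 800139, with region 1, from 797584 to 799095, at 89.9% identity and region 2, from 799405 to 799878, at 52.5%. Region 1 was at 137, 140 and 142 CPM in opaque libraries 1, 2 and 3, and at 123, 116 and 117 CPM in white libraries 1, 2 and 3. The opaque libraries were all slightly above the white ones, with a log2 fold change of 0.23 (SE 0.059). Region 2 was at 45.5, 40.1 and 39.97 CPM in opaque libraries 1, 2 and 3, and at 36.4, 40.6 and 37.1 CPM in white libraries 1, 2 and 3. Here the groups overlapped, and the log2 fold change of 0.14 (SE 0.082) was not called.

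MOB2, on scaffold 7 from 96451 to 97266 at 80.1% identity, was at 57.9, 61.7 and 60.6 CPM in opaque libraries 1, 2 and 3, and at 48.2, 53.8 and 52.3 CPM in white libraries 1, 2 and 3. The groups did not overlap but were close, with a log2 fold change of 0.22 (SE 0.068). The calls of CBK1 region 1 and MOB2 depended on the scaling. With upper-quartile scaling their log2 fold changes were 0.12 and 0.11 and with total counts 0.08 and 0.06, none of them called, and MOB2 was also not called without opaque library 2 (0.19) or white library 1 (0.16). The same scalings left DSE4, CTS1, SCW11 and AMN1 called lower in opaque cells.

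**Figure D2:**
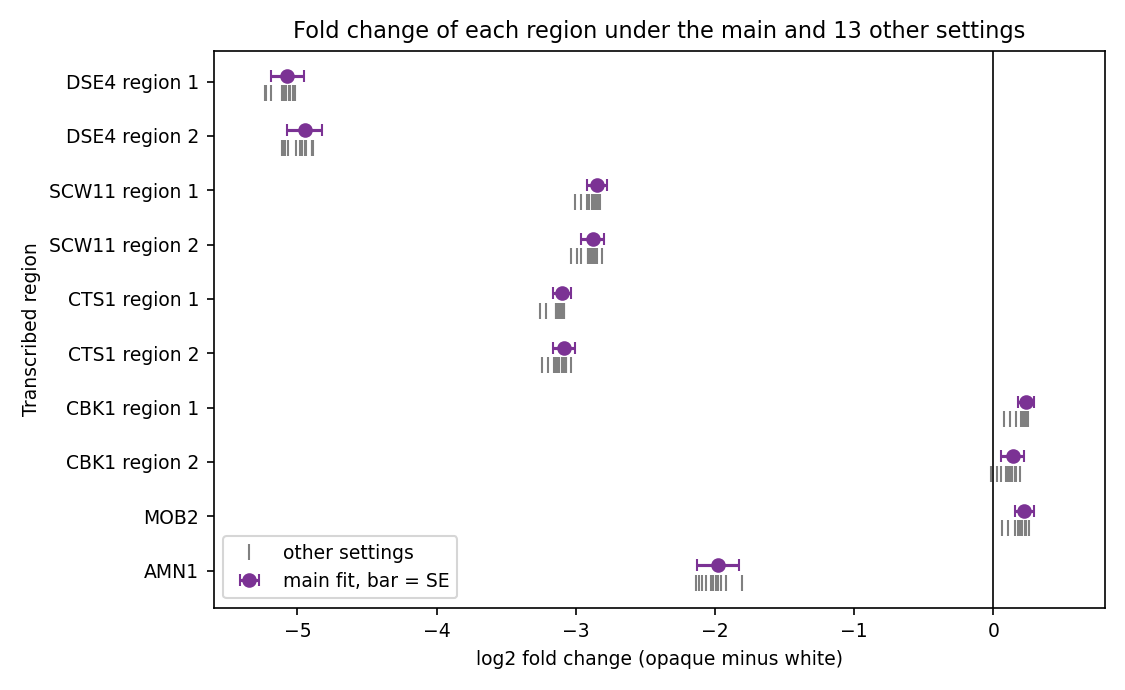
Log2 fold change (opaque minus white) of each member region, with points and SE bars from the TMM fit and grey ticks for 13 other settings. DSE4 is near -5, CTS1 and SCW11 are near -3 and AMN1 is near -2, while CBK1 and MOB2 stay within 0.3 of 0.

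Levels per kb of region allowed the genes to be ordered within each cell type, using region 1 where a name had several. In opaque cells CBK1 was highest at 92.4 ± 1.63 CPM per kb, followed by MOB2 at 73.7 ± 2.40, CTS1 at 56.0 ± 2.07, SCW11 at 47.3 ± 2.95, DSE4 at 13.1 ± 2.16 and AMN1 at 7.74 ± 1.67 CPM per kb (SD, n = 3). In white cells CTS1 was highest at 480 ± 8.81 CPM per kb, followed by DSE4 at 441 ± 15.1, SCW11 at 341 ± 8.12, CBK1 at 78.5 ± 2.36, MOB2 at 63.1 ± 3.58 and AMN1 at 30.0 ± 2.29 CPM per kb (SD, n = 3). The libraries of neighbours in each order did not overlap. By region 1, CBK1 and MOB2 thus stood above the 3 enzyme genes in opaque cells and below them in white cells.

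The choice of region could change such an order, since regions of the same transcript did not give the same level per kb. Region 2 of CTS1 was above region 1 by 0.46 ± 0.074 on the log2 scale in opaque libraries and by 0.46 ± 0.043 in white libraries (SD, n = 3 each). For SCW11 this excess was 0.33 ± 0.24 in opaque libraries and 0.35 ± 0.092 in white libraries. For DSE4 the log2 ratio was -0.03 ± 0.029 in opaque libraries and -0.17 ± 0.072 in white libraries, and for CBK1 it was -0.06 ± 0.13 in opaque libraries and 0.04 ± 0.12 in white libraries. Region 2 of SCW11, at 436 CPM per kb in white cells, was therefore level with region 1 of DSE4 there. Region 2 of CTS1, at 77.4 ± 6.48 CPM per kb in opaque cells (SD, n = 3), had a higher mean than MOB2 and overlapped it, so that the place of MOB2 above CTS1 in opaque cells holds for region 1 only. All 10 regions were covered by reads over their whole length in each of the 6 libraries, none overlapped another region, and their counts ran from 184 to 39105 per library. The biological coefficient of variation was 6.19 to 12.1% for the members, highest for AMN1, with a median of 7.69% over all tested regions.

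Called regions around the separation genes went in both directions except around CBK1, and most regions were lower in opaque cells only around CTS1. Of 10 other regions within 15 kb of CBK1, 8 were called higher in opaque cells and 0 lower, with a median log2 fold change of 0.74. Around SCW11, 7 of 13 were called higher and 3 lower, with a median of 0.39. Among all tested regions 36.6% were called higher and 37.6% lower. The nearest region on the low-coordinate side of DSE4, an 89 bp region named YHC1, did not pass the test (-0.35, adjusted p = 0.46, edgeR). On the other side lay a 77 bp region named CHS3, 284 bases from DSE4, with 0, 0 and 3 counts in opaque libraries 1, 2 and 3 and 10, 21 and 21 counts in white libraries 1, 2 and 3 (adjusted p = 0.0017, edgeR). It lies outside the assembled DSE4 transcript and matches at 42.3% identity. Within 15 kb of DSE4, 4 of 11 other regions were called lower in opaque cells, this one included, and 4 higher, with a median log2 fold change of 0.14.

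SCW11 lay between CWH41, a glucosidase gene of glycoprotein processing, which fell by 0.57 (log2) in opaque cells (adjusted p = 4.6e-06, edgeR), and CGR1, a ribosome assembly gene, which rose by 3.10 (adjusted p = 5.8e-07). CTS1 lay between LAS17, a promoter of actin assembly, which fell by 1.10, and ECI1, a peroxisomal isomerase, which fell by 0.43 (adjusted p = 7.1e-06 and 2.5e-04, edgeR). Of 16 other regions within 15 kb of CTS1, 11 were called lower in opaque cells and 3 higher, with a median of -0.80, and 5 of these regions share the name YLR278C. Around AMN1, LGE1 rose by 0.58 and LEE1 fell by 1.22 (adjusted p = 3.3e-04 and 1.9e-05, edgeR). CBK1 and MOB2 each lay beside a gene of the large ribosomal subunit, RPL42A and RPL22A, which rose by 1.30 and 1.04 (adjusted p = 4.5e-08 and 5.0e-08, edgeR). On their other sides lay a 92 bp region named SUL2 beside CBK1, at -0.85 (adjusted p = 0.055, edgeR), and the mitochondrial RNA polymerase gene RPO41 beside MOB2, which rose by 0.39 (adjusted p = 0.0021, edgeR).

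**Figure D3:**
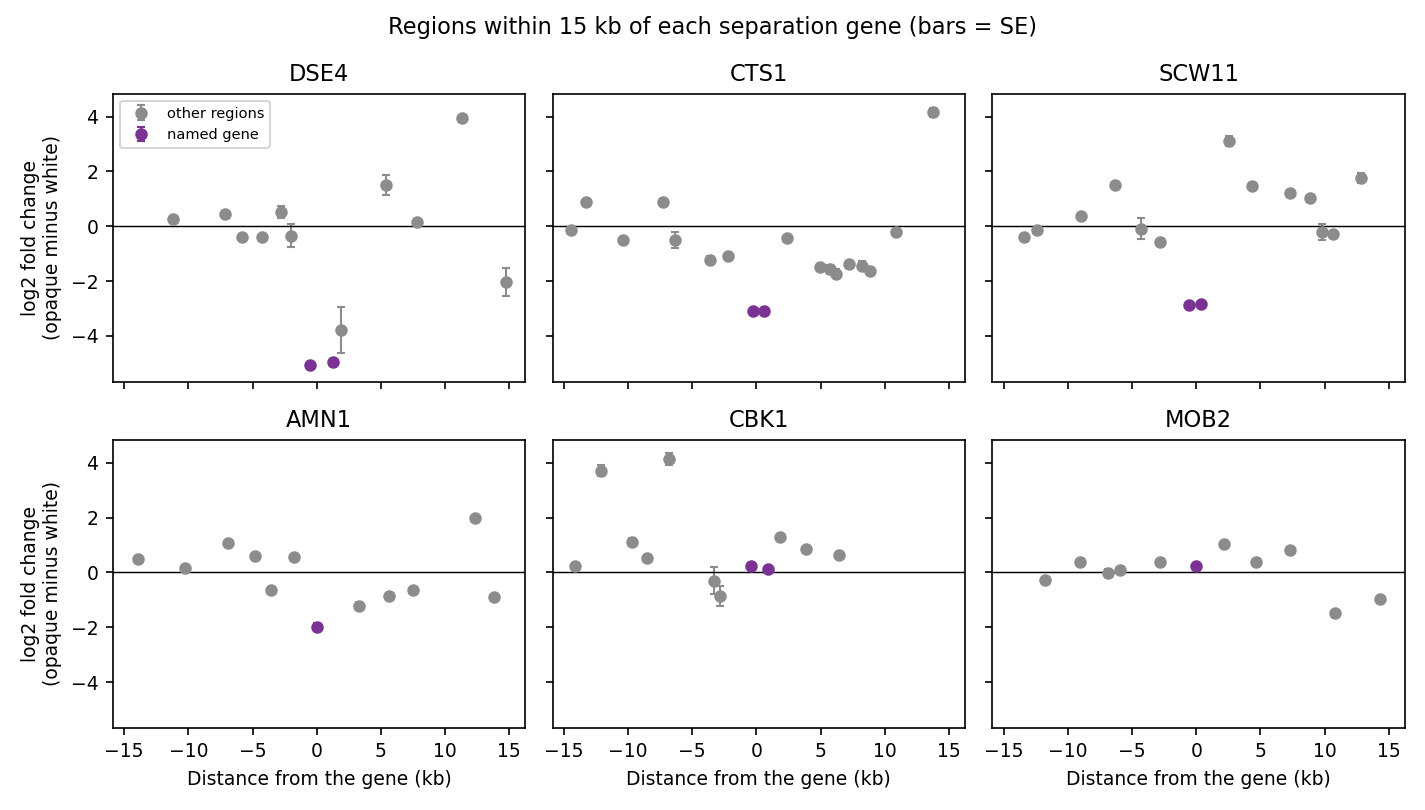
Log2 fold change (opaque minus white, bars are SE) of every tested region within 15 kb of each separation gene, against distance from the gene in kb. The named genes DSE4, CTS1, SCW11 and AMN1 lie below the regions around them, which go in both directions, and CBK1 and MOB2 lie among theirs.

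Other RAM network genes differed by much less than the enzyme genes and in both directions. Of 5 tested genes of the list for this network and its regulators, 2 rose in opaque cells, 1 fell and 2 were not past the test, at a median log2 fold change of 0.14. The shares of all tested regions to set beside this list and those below were 36.6% called higher and 37.6% lower. KIC1, the kinase upstream of Cbk1, was at 110 ± 4.64 CPM in opaque cells and 80.4 ± 6.44 CPM in white cells (SD, n = 3 each), a rise of 0.46 on the log2 scale (adjusted p = 1.4e-04, edgeR). The leucine-rich repeat protein gene SOG2 rose by 0.21 (adjusted p = 0.0073, edgeR), but did not pass with upper-quartile scaling (0.10) or total counts (0.05). TAO3, the scaffold of the network, is split over 14 regions, of which the most abundant fell by 0.59 in opaque cells (adjusted p = 8.7e-04, edgeR), and by 0.37 when all were summed.

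The genes listed as others that *S. cerevisiae* expresses in daughter cells or between mitosis and G1 were mostly lower in opaque cells. Of 6 tested genes, 4 fell, 1 rose and 1 did not pass, against 37.6% of all tested regions called lower and 36.6% higher. The median was -1.01, against -0.02 over all tested regions. RME1, which did not pass and was picked out after its values were seen, is a 71 bp region at 0.73 CPM in opaque cells and 0.67 CPM in white cells. ASH1, the daughter-specific repressor of mating type switching, was at 72.0 ± 9.56 CPM in opaque cells and 280 ± 11.9 CPM in white cells (SD, n = 3 each), which put the log2 fold change at -1.96 (SE 0.093) with an adjusted p of 6.8e-09 (edgeR). PIR1, a wall protein linked to glucan, was at 352 ± 5.34 CPM in opaque cells and 1333 ± 43.1 CPM in white cells, or -1.92 on that scale (SE 0.063), with an adjusted p of 3.4e-10 (edgeR). The Cdk inhibitor gene FAR1, matched at only 34.2% identity, fell by 1.11 (adjusted p = 2.9e-07, edgeR). CDC6, picked out after its values were seen, which loads the replication helicase, rose by 0.39 (adjusted p = 0.0028, edgeR). The list does not hold every gene of this timing. Cyclins and other cell cycle regulators formed a list of their own, given below, in which 7 rose, CLN3 by 3.44, and 7 fell.

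Among 9 tested wall hydrolases and remodelling genes outside the set, 3 fell in opaque cells, 0 rose and 6 did not pass, with a median of -0.12. Of these 6, the region named SCW10, picked out after its values were seen, is 170 bp long and matches at 30.0% identity. It was at only 1.87 CPM in opaque cells and 1.38 CPM in white cells. EXG1, the major exoglucanase of the wall, was at 335 ± 30.3 CPM in opaque cells and 1844 ± 107 CPM in white cells (SD, n = 3 each), which put the log2 fold change at -2.46 (SE 0.084) with an adjusted p of 4.7e-10 (edgeR). SIM1 and SCW4, a SUN family protein gene and a glucanase-like gene, fell by only 0.42 and 0.39 (adjusted p = 1.6e-04 and 1.9e-04, edgeR). ACF2, which encodes the intracellular endoglucanase related to Dse4 and was picked out after its values were seen, was at 43.9 ± 3.14 CPM in opaque cells and 47.8 ± 1.29 CPM in white cells, which differed by -0.13 (log2, SE 0.074) with an adjusted p of 0.14 (edgeR).

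The machinery that ends mitosis and builds the septum went both ways. Of 9 tested genes listed for the mitotic exit network, 5 fell in opaque cells, 1 rose and 3 did not pass, with a median of -0.31. The list holds genes that drive the network and genes that restrain it, so its counts give no direction for the pathway. The kinase genes DBF2 and CDC15, which drive it, fell by 0.61 and 0.63 (adjusted p = 8.1e-06 and 6.9e-05, edgeR). A 155 bp region that matches at 31.5% identity and is named KIN4, after an inhibitor of the network, fell by 2.48 (adjusted p = 4.1e-08, edgeR). Of 18 genes of the septins, the contractile ring and the septum, 6 rose, 5 fell and 7 did not pass, with a median of -0.04. The septin genes SHS1 and CDC3 rose by 0.65 and 0.62 and the chitin synthase gene CHS3 by 0.55 (adjusted p = 2.5e-06, 8.4e-06 and 1.8e-05, edgeR). The rise of CHS3 is that of the most abundant of 3 regions of this name. Another, the 77 bp region beside DSE4, was lower in opaque cells. MYO1 and CHS2 of this list were picked out after their values were seen. MYO1 had the largest fall, at -0.65 (adjusted p = 3.2e-04, edgeR), and the chitin synthase gene CHS2 did not pass (0.03, adjusted p = 0.75, edgeR).

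Cyclins and other cell cycle regulators showed no common direction, with 7 of 15 tested genes higher in opaque cells, 7 lower and 1 not past the test, and a median of 0.06. SWE1, the kinase that restrains entry into mitosis, fell by 0.95, NDD1, an activator of mitotic genes, fell by 0.68, and CDC20, an activator of the anaphase-promoting complex, rose by 0.77 (adjusted p = 3.7e-07, 2.0e-06 and 1.3e-06, edgeR). The largest difference in this list, picked out after its values were seen, was that of CLN3, the gene of a G1 cyclin that promotes entry into the cell cycle. CLN3 was at 62.5, 95.9 and 96.0 CPM in opaque libraries 1, 2 and 3, and at 5.79, 6.06 and 11.1 CPM in white libraries 1, 2 and 3. The groups did not overlap, with the lowest opaque library well above the highest white one, and the log2 fold change was 3.44 (SE 0.32, adjusted p = 8.8e-05, edgeR).

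Markers of other states that the cultures could hold were also measured. The 11 tested meiosis and spore wall markers summed to between 117 and 126 CPM in opaque libraries and between 102 and 111 CPM in white libraries, with 3 genes higher in opaque cells, 1 lower and 7 not past the test. The largest parts of the sum were SPR3 (56.9 CPM in opaque and 51.0 CPM in white cells) and DIT1 (34.6 and 24.4 CPM). Of those not past the test, CDA1 and IME2 were short regions of 86 and 167 bp. They were at 0.38 and 0.95 CPM in opaque cells and 0.55 and 1.21 CPM in white cells. SPR3, CDA1 and IME2 were picked out after their values were seen. The sporulation gene SPS4 rose by 2.10 and DIT1, which makes a spore wall precursor, by 0.50 (adjusted p = 2.9e-06 and 9.9e-05, edgeR). A region named NDT80, after the meiotic transcription factor, fell by 1.10 (adjusted p = 1.5e-04, edgeR). It matched at only 33.9% identity and was at 7.42 CPM in opaque cells and 15.9 CPM in white cells. The 6 tested pheromone response and mating markers summed to between 77.0 and 84.7 CPM in opaque libraries and between 143 and 153 CPM in white libraries. Of these, FUS1 and KAR4, which act in cell fusion and its regulation, fell by 1.86 and 1.18, PRM1, another fusion gene, rose by 1.97 (adjusted p = 4.3e-09, 3.0e-06 and 1.2e-07, edgeR), and 3 did not pass. The part of such cells in the levels of the separation genes was not tested.

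**Figure D4:**
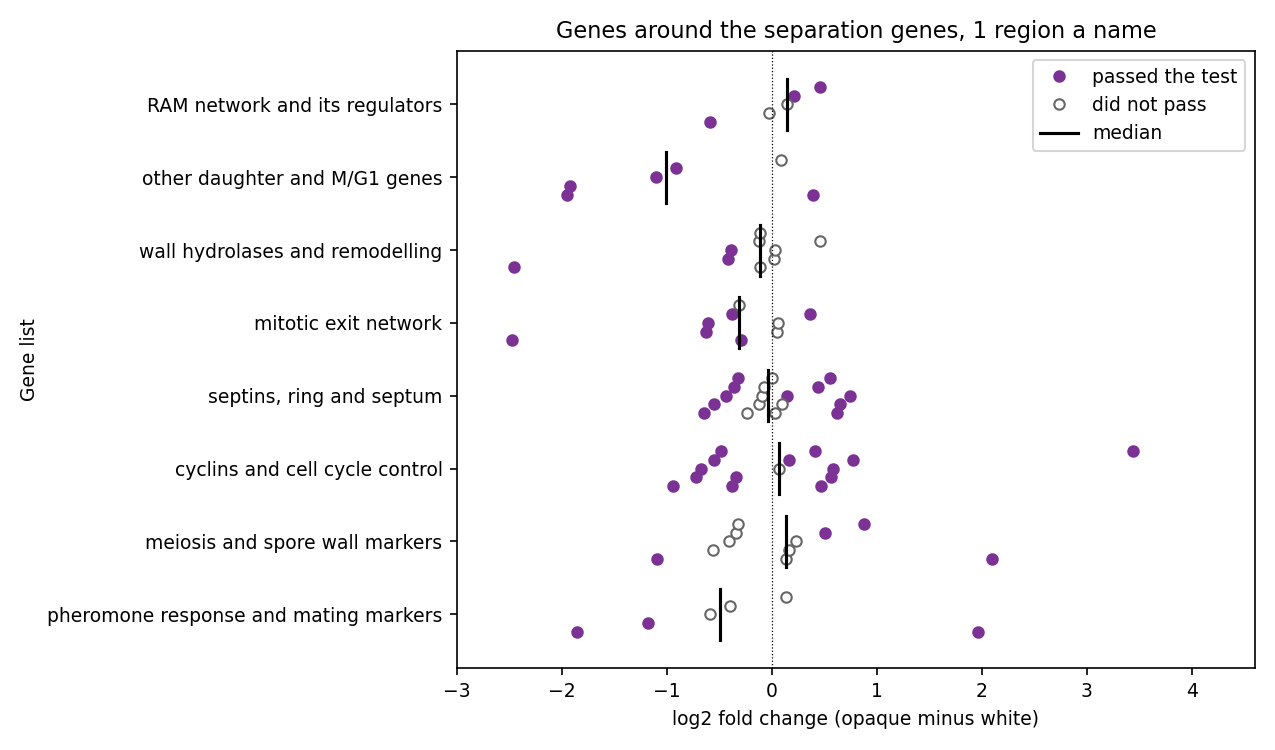
Log2 fold change (opaque minus white) of the most abundant region of each tested gene in 8 lists around the separation genes, with filled points past the test, open points not past it and a black line at the median. The daughter and M/G1 list has the lowest median, at -1.01, and the other medians lie between -0.50 and 0.14.

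Over the 8 lists, 28 of 79 tested genes fell in opaque cells, 21 rose and 30 did not pass. Among all tested regions 37.6% were called lower and 36.6% higher. The split of the lists moved to 37 lower and 16 higher under upper-quartile scaling and to 38 lower and 14 higher with total counts. At least 4-fold lower were 2 of them, EXG1 and KIN4, against 5.25% of all tested regions, and at least 4-fold higher 2, CLN3 and SPS4, against 5.93%. SPS4 was at 7.65 CPM in opaque cells and 1.76 CPM in white cells. Its log2 fold change fell short of the 4-fold limit with upper-quartile scaling (1.98), total counts (1.94) or without white library 1 (1.89). The regions most like a separation gene over the 6 libraries were found by the root mean square difference of log2 levels, each centred on its own mean, among 3553 other regions with a mean of at least 10 CPM. For DSE4 these were PIC2, GLK1, OM14, PCK1 and YNR034W-A, at differences of 0.16, 0.18, 0.23, 0.23 and 0.24. GLK1, glucokinase, was at 48.4 ± 2.41 CPM in opaque cells and 1794 ± 197 CPM in white cells (SD, n = 3 each). For SCW11 they were PRX1, MCR1, TMA17, IDH2 and INM2, at differences of 0.10, 0.10, 0.11, 0.12 and 0.13. As the 6 libraries form 2 groups, this likeness mostly reflects a similar fold change and was not tested.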

How the data were processed

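The mRNA of 3 opaque and 3 white cultures was analysed. The authors aligned paired reads with STAR to the CLIB830T assembly, merged transcripts assembled with cufflinks and named regions by BLAST. The deposited counts are whole numbers per region, not normalised. The deposited files also give the covered fraction of a region (covered bases over length), and the deposited percent identity is that of the BLAST match. Strand use in counting, and hence antisense signal, is not given in the sources used here. The 2 DNA samples were not analysed here.

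Counts were fitted with edgeR 4.0.16 in R 4.3.3 (filterByExpr, TMM, robust quasi-likelihood, cell type as the factor), and the script was tested on simulated data. SE is the log2 fold change over the root of F. DESeq2 1.42.0 (DESeq2 is also named in the submitters' processing notes), 2 scalings, 2 filters, a culture block, counts summed per name and leaving out each library were tried. An exact permutation test of 3 against 3 cannot give a two-sided p under 0.1. The labels name cultures but not separate isolates, so p-values cover the spread between cultures. Library pairs of a group differed by more than counting noise (chi-square per degree of freedom of at least 16.5).

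The members and the 8 lists were chosen with earlier results of these data known. Genes named are all member regions, up to 3 genes per list with the smallest p, the nearest region on either side of each member gene, and the 5 regions most like DSE4 and SCW11, and any others are said to be picked later. A name in a list is represented by its most abundant region. Of 114 names in the lists, 79 had a tested region and enter the counts, and 1 further gene chosen for a list was left out of them and is not reported here.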

Additional observations from a re-analysis of the deposited data

How the results depend on the processing

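The member regions called lower in opaque cells were the same number, 7, under every alternative on regions, and were 4 names of 6 with counts summed per name, where regions of a name are merged. The number called higher was 2 with TMM, 0 with upper-quartile scaling, 0 with total counts, and 1 to 2 when a library was left out (1 without opaque library 2 and 1 without white library 1). CBK1 region 2 changed sign with total counts (-0.0162, not called). With counts summed per name, 140 names in place of 231 regions were at least 4-fold lower in opaque cells, out of fewer features. Upper-quartile scaling and total counts split the calls over all regions into 1402 higher and 1937 lower, and 1317 higher and 2021 lower, against 1611 and 1656 with TMM. Culture numbers did not pair the libraries (correlations of deviations -0.04, -0.04 and 0.18, and opaque library 1 correlated best with white library 2, at 0.21). A replicate block on them gave 1599 regions higher and 1660 lower, with 2 and 7 member regions, and changed no call among the 35 fold changes named from the members and lists. DESeq2 gave 1621 higher and 1635 lower, with 2 and 7 member regions. Of these 35, 32 kept direction and call under upper-quartile scaling and 31 when total counts were used. Regions with under 10 counts in a library, such as that named CHS3 beside DSE4, are limited by depth.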
